A study of Bos taurus with 10 samples.

Results

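Mitosis is the stage of the cell cycle in which copied chromosomes are condensed, attached to the spindle and pulled apart before the cell divides. The genes described here are 41 genes of that machinery, listed by name and found in the deposited expression table by an exact match of the gene symbol, so that 41 of the 21130 rows of the table were used and each symbol had a single row. They cover the Cdk1 switch that starts mitosis, the kinases that build the spindle, the checkpoint that delays chromosome separation, the ubiquitin system that ends mitosis, the kinetochore, and the motors and proteins of cytokinesis. Most of these genes are transcribed in a wave in the G2 phase and mitosis, so in bulk RNA their levels depend on how many cells are dividing. Adult skeletal muscle consists mostly of fibres that no longer divide.

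The study set out to profile muscle mRNA from cattle aged 24 months that are heterozygous for MSTN, which encodes the muscle growth inhibitor myostatin, beside wild-type cattle. It holds 7 libraries labelled MSTN+/- and 3 labelled wild type, with muscle as the tissue and 24 months as the age of both groups, and with no other allele or treatment named. The labels do not say which change was made in MSTN or how many animals were used, so the p-values reflect variation among libraries, some of which may be technical. In bulk samples, fewer cells of a type and less RNA per cell cannot be told apart.

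The table's descriptions did not match the labelled species, and several defining genes of the labelled tissue were low, so the groups are named by their labels only. Of the 41 mitosis genes, 37 were described as transcripts of Mus musculus and 4 had no description, and 0 of their gene identifiers were in a RefSeq table of cattle genes. The same held for the table as a whole. Of its 21130 rows, 19415 were described as Mus musculus, and 0 of its gene identifiers were among those of cattle. Of 16 skeletal muscle fibre markers, 6 stayed below 1 FPKM in every library (FPKM is a fragment count scaled by transcript length and by the fragments mapped in that library), among them the titin gene Ttn at 0.02 to 0.11 FPKM in MSTN+/- libraries and 0.01 to 0.40 FPKM in wild-type libraries. Other fibre markers were higher in some libraries (marker genes named here were chosen after their values were seen). The myosin light chain gene Mylpf was at 6.24 to 26.7 FPKM for MSTN+/-, against 0.75, 155 and 125 FPKM for wild-type replicates 1, 2 and 3. The myosin heavy chain gene Myh2 was at 5.73 to 15.3 FPKM for MSTN+/-, against 0.14, 0.02 and 0 FPKM for wild type, and the actin gene Acta1 at 2.66 to 6.22 FPKM for MSTN+/-, against 24.4, 3.58 and 2.87 FPKM for wild type. The summed level of 14 fibroblast markers was 4967 to 8967 FPKM in MSTN+/- libraries, against 10246, 993 and 773 FPKM for wild-type replicates 1, 2 and 3. In wild-type replicate 1 most of this sum came from Col1a1, Vim, Col1a2 and Fn1, at 3017, 2516, 1531 and 1316 FPKM. Dcn and Lum were the only members that lay below every MSTN+/- library there. They were at 24.3 and 28.8 FPKM, against 169 to 324 and 45.2 to 99.9 FPKM for MSTN+/-. The summed level of 15 pluripotent cell markers was 1286 to 2165 FPKM in MSTN+/- libraries, against 32.5, 3110 and 3629 FPKM for the same wild-type replicates. That list was split: Pou5f1, Klf4 and Sox2 carried most of the MSTN+/- sums, while most other members were far higher in wild-type replicates 2 and 3. Its median member was at 4.48 to 31.3 FPKM for MSTN+/-, against 0.09, 103 and 152 FPKM for wild type, and Nanog was at 5.95 to 55.0 FPKM for MSTN+/-, against 0.91, 234 and 177 FPKM for wild type. The wild-type libraries thus differed widely from one another. Where wild-type values are given below for each library, they are in the order of replicates 1, 2 and 3. Of 7 satellite cell, 8 immune cell and 6 endothelial markers, 5, 4 and 2 stayed below 1 FPKM in every library, and the list sums were at most 7.1, 15.2 and 28.8 FPKM for MSTN+/- and at most 13.7, 17.1 and 29.0 FPKM for wild type. The endothelial sums were mostly those of single genes. Tek was at 15.8 to 23.6 FPKM for MSTN+/-, against 0.66, 2.24 and 1.37 FPKM for wild type (log2 change 3.24, limma adjusted p = 1.21e-06), and Pecam1 at 0.09 to 5.75 FPKM for MSTN+/-, against 0.06, 26.4 and 24.3 FPKM for wild type.

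All 41 mitosis genes were detected in every library, and all passed the filter of 1 FPKM or more in at least 3 libraries that left 14047 genes for testing. Their median level was 11.9 to 25.7 FPKM across MSTN+/- libraries, against 28.6, 48.7 and 51.6 FPKM for wild type. Over all genes tested, the median level was 9.66 to 10.5 FPKM across MSTN+/- libraries, against 7.73, 8.44 and 8.16 FPKM for wild type. The most abundant was Ube2c, the ubiquitin-conjugating enzyme of the anaphase-promoting complex, and by the median of the MSTN+/- libraries the least abundant was Cdc25c, a phosphatase that activates Cdk1. Total depth is not known from FPKM. Relative depth, read from the steps between low values, was 1 to 1.15 in MSTN+/- libraries and 1.11 to 1.23 in wild-type libraries, with MSTN+/- replicate 1 set to 1.

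Of the 41 genes, 34 were lower and 1 was higher in the libraries labelled MSTN+/- (limma on log2(FPKM + 1), adjusted p under 0.05 over all genes tested), and 6 did not pass. Of all genes tested, 12.8% were lower and 31.8% higher by the same rule. The median log2 change was -1.13 over the mitosis genes and 0.17 over all genes tested. Scaling by the median of ratios moved the median of all genes to 0.00 and quantile normalization to -0.06, and of all calls 71.3% were higher as deposited, 50.3% and 47.0% under these scalings. The median over the mitosis genes was then -1.34 and -1.16, and 39 and 36 of the 41 were lower, beside 23.0% and 24.8% of all genes tested. In 26 of the 41, all 7 MSTN+/- libraries lay below all 3 wild-type libraries, as they did for 6.86% of all genes tested. Every MSTN+/- library lay above every wild-type library for 1 mitosis gene, Cdc25b, and for 25.2% of all genes tested. The size and the calls depended on which wild-type libraries were included. Without wild-type replicate 1, 38 genes were lower and 1 higher, beside 31.9% and 42.2% of all genes tested in that fit, at a median log2 change of -1.39 over the mitosis genes. Without wild-type replicate 2, 18 were lower and 1 higher, beside 5.71% and 25.2% of all genes, and without replicate 3, 17 were lower and 1 higher, beside 5.70% and 24.8%. The median log2 change over the mitosis genes was nearly as large in these fits, at -1.03 and -0.94. Against wild-type replicate 1 alone, 4 were lower and 1 higher, beside 10.8% and 33.7% of all genes, at a median of -0.49, in a fit that assumes that this library varies like the MSTN+/- ones.

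**Figure D1:**
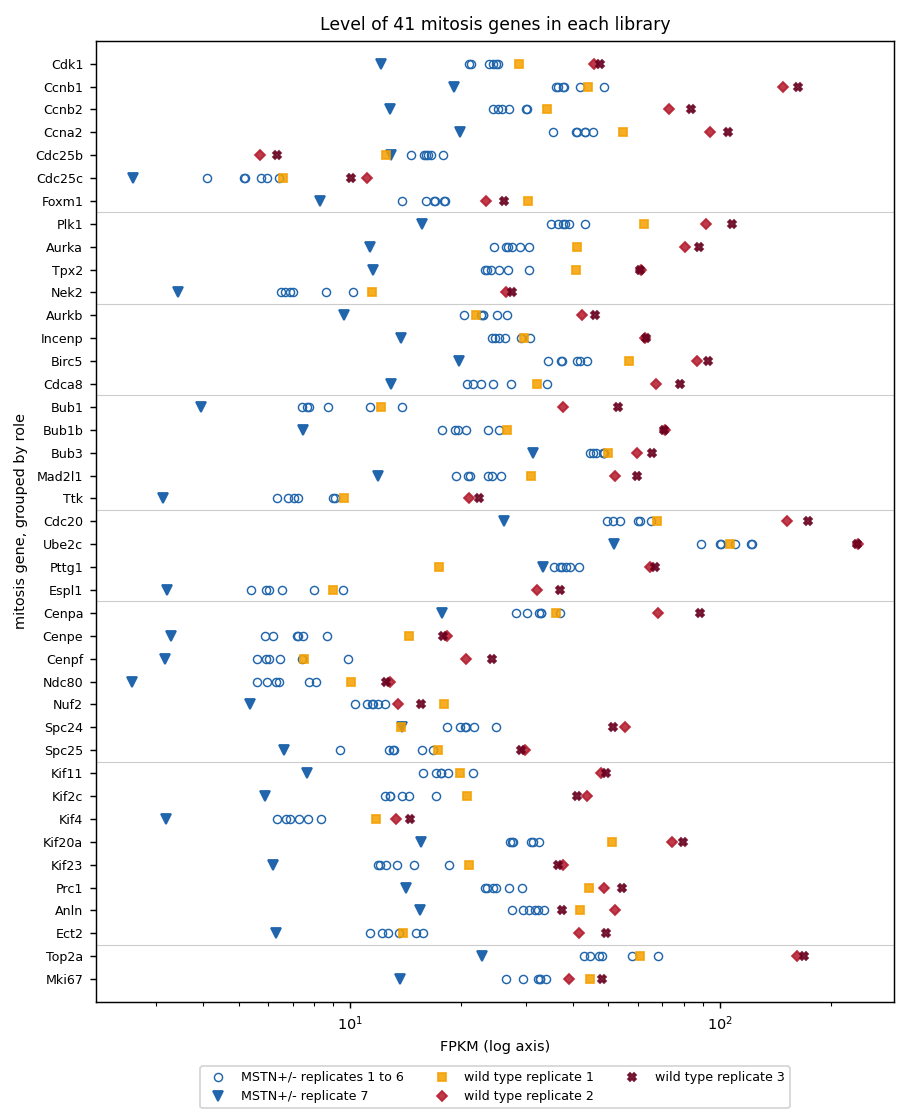
FPKM (log axis) of each of the 41 mitosis genes in each library, with genes grouped by role. MSTN+/- replicate 7 lies left of the other 6 MSTN+/- libraries for all 41 genes, and wild-type replicates 2 and 3 lie right of all MSTN+/- libraries for 40, with Cdc25b in the opposite order.

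The genes of the Cdk1 switch were lower in MSTN+/- libraries with a single exception. Cdk1 is the kinase that drives entry into mitosis, Ccnb1, Ccnb2 and Ccna2 encode the cyclins that activate it, and the phosphatases Cdc25b and Cdc25c remove its inhibitory phosphates. Cdk1 (gene 12534) was at 12.1, 23.8 and 25.1 FPKM at the lowest, median and highest of the MSTN+/- group, against 28.6, 45.8 and 47.5 FPKM for wild type. The groups did not overlap, and the log2 change was -0.87 (standard error 0.23, limma adjusted p = 0.0135). Ccnb1 (gene 268697) was at 19.1, 37.6 and 48.6 FPKM at the lowest, median and highest of the MSTN+/- group, against 44.0, 148 and 163 FPKM for wild type. Wild-type replicate 1 lay within the MSTN+/- range and the other wild-type libraries far above it (log2 change -1.49, standard error 0.39, limma adjusted p = 0.0117). Ccnb2 and Ccna2 did not overlap between groups and had log2 changes of -1.25 and -1.11 (limma adjusted p = 0.00835 and 0.00848). Cdc25c, at 2.60 to 6.44 FPKM across MSTN+/- libraries, against 6.58, 11.2 and 10.1 FPKM for wild type, had a log2 change of -0.77 (limma adjusted p = 0.0230). The calls of Cdk1, Ccnb1 and Cdc25c were lost without wild-type replicate 2 (limma adjusted p = 0.0642, 0.0642 and 0.107) or replicate 3 (0.0675, 0.0668 and 0.0875), and that of Cdc25c also with library weights (0.0564).

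Cdc25b moved the other way. It was at 12.9, 16.0 and 17.9 FPKM at the lowest, median and highest of the MSTN+/- group, against 12.6, 5.72 and 6.36 FPKM for wild type. The groups did not overlap, although MSTN+/- replicate 7 and wild-type replicate 1 were nearly level. The mean of Cdc25b was 15.7 ± 1.57 FPKM for MSTN+/- (SD, n = 7), against 8.21 ± 3.77 FPKM for wild type (SD, n = 3) (log2 change 0.93, standard error 0.20, limma adjusted p = 0.00427). Against wild-type replicate 1 alone the change was 0.30 and the call was lost (limma adjusted p = 0.130). Foxm1, the transcription factor that switches on many G2 and mitosis genes, was highest in wild-type replicate 1. It was at 8.28, 16.9 and 18.1 FPKM at the lowest, median and highest of the MSTN+/- group, against 30.3, 23.3 and 26.1 FPKM for wild type, a log2 change of -0.77 (limma adjusted p = 0.0159). Against wild-type replicate 1 alone its log2 change was -0.96. Its call was lost with library weights (limma adjusted p = 0.0802).

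All 4 mitotic kinase genes and activators were lower. Plk1, a kinase needed for mitotic entry, spindle assembly and cytokinesis, was at 15.7, 37.8 and 43.1 FPKM at the lowest, median and highest of the MSTN+/- group, against 62.3, 91.7 and 108 FPKM for wild type. Its log2 change was -1.31 (standard error 0.29, limma adjusted p = 0.00487). Aurka, the kinase of the centrosome and spindle poles, was at 11.3, 26.8 and 30.5 FPKM for MSTN+/-, against 41.01, 80.4 and 87.7 FPKM for wild type, and Tpx2, which activates that kinase on spindle microtubules, at 11.6, 24.1 and 30.5 FPKM for MSTN+/-, against 40.9, 61.2 and 61.01 FPKM for wild type. Nek2, which helps centrosomes separate, was at 3.43, 6.89 and 10.2 FPKM for MSTN+/-, against 11.5, 26.5 and 27.4 FPKM for wild type. None of the 4 overlapped between groups. The log2 changes of Aurka, Tpx2 and Nek2 were -1.41, -1.20 and -1.45 (limma adjusted p = 0.00509, 0.00433 and 0.00427), and all 4 genes passed whichever of the 3 wild-type libraries was left out. Against wild-type replicate 1 alone none of them passed (limma adjusted p = 0.125, 0.179, 0.111 and 0.173 for Plk1, Aurka, Tpx2 and Nek2).

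The chromosomal passenger complex corrects faulty attachments of chromosomes to the spindle. It consists of the kinase Aurkb, its scaffold Incenp, and Birc5 and Cdca8, which target it to the centromere. Incenp, Birc5 and Cdca8 were lower, by log2 changes of -0.99, -1.09 and -1.25 (limma adjusted p = 0.0165, 0.00516 and 0.00859). Birc5 was at 19.7, 37.5 and 43.9 FPKM at the lowest, median and highest of the MSTN+/- group, against 56.7, 86.5 and 92.8 FPKM for wild type, with no overlap. Aurkb did not pass. It was at 9.62, 22.9 and 26.6 FPKM at the lowest, median and highest of the MSTN+/- group, against 21.9, 42.5 and 46.0 FPKM for wild type, of which replicate 1 lay within the MSTN+/- range (log2 change -0.74, limma adjusted p = 0.0759). With wild-type replicate 1 left out, all 4 passed, Aurkb at a log2 change of -1.06 (limma adjusted p = 0.00823). Aurkb also passed with median-of-ratios scaling (0.0225) and library weights (0.0394). The call of Incenp was lost without wild-type replicate 2 or 3 (limma adjusted p = 0.0843 each).

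The spindle checkpoint delays anaphase until every chromosome is attached. Its kinase genes Bub1 and Ttk, the checkpoint protein gene Bub1b and Mad2l1, whose product binds and inhibits Cdc20, were lower, and Bub3 did not pass. Bub1 had the most negative log2 change of the 41 genes (-1.71, standard error 0.43, limma adjusted p = 0.00916). It was at 3.97, 7.77 and 13.9 FPKM at the lowest, median and highest of the MSTN+/- group, against 12.2, 37.6 and 53.1 FPKM for wild type, so that replicate 1 overlapped the MSTN+/- range. Mad2l1 was at 11.9, 21.1 and 25.7 FPKM for MSTN+/-, against 30.9, 52.1 and 59.8 FPKM for wild type, without overlap (log2 change -1.13, limma adjusted p = 0.00511). Bub1b and Ttk had log2 changes of -1.45 and -1.20 (limma adjusted p = 0.0123 and 0.0111). The calls of Bub1b and Ttk were lost without wild-type replicate 2 (0.0650 and 0.0572) and without replicate 3 (0.0644 and 0.0598), and that of Bub1 without replicate 3 (0.0527). Bub3, which carries Bub1 and Bub1b to kinetochores, did not overlap between groups. It was at 31.2, 46.3 and 48.8 FPKM at the lowest, median and highest of the MSTN+/- group, against 49.8, 59.7 and 65.8 FPKM for wild type, a log2 change of -0.38 (limma adjusted p = 0.0625). It passed in 6 alternatives, namely TPM, median-of-ratios and quantile scaling (0.0304, 0.00750 and 0.0440), library weights (0.0481), and leaving out MSTN+/- replicate 7 (0.0447) or wild-type replicate 1 (0.0140).

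Of the 4 genes that end mitosis, Cdc20, Ube2c and Espl1 were lower and Pttg1 did not pass. Cdc20 activates the anaphase-promoting complex, which with Ube2c marks cyclin B and securin, the product of Pttg1, for destruction, and this frees separase, the product of Espl1, to cut the rings that hold sister chromatids together. Cdc20 was at 26.1, 53.9 and 65.1 FPKM at the lowest, median and highest of the MSTN+/- group, against 67.5, 152 and 173 FPKM for wild type (log2 change -1.24, limma adjusted p = 0.0122). Ube2c was at 51.7, 101 and 122 FPKM for MSTN+/-, against 107, 237 and 235 FPKM for wild type, with wild-type replicate 1 inside the MSTN+/- range (log2 change -0.91, limma adjusted p = 0.0357). Espl1 was at 3.21, 6.06 and 9.56 FPKM for MSTN+/-, against 9.01, 32.2 and 37.0 FPKM for wild type (log2 change -1.70, standard error 0.40, limma adjusted p = 0.00679). Pttg1 split the wild-type libraries. It was at 33.3, 37.4 and 41.6 FPKM at the lowest, median and highest of the MSTN+/- group, against 17.4, 64.9 and 66.7 FPKM for wild type, so that replicate 1 lay below and replicates 2 and 3 above every MSTN+/- library. Its log2 change was -0.18 over all libraries (limma adjusted p = 0.689), -0.80 without wild-type replicate 1 (1.67e-05) and 1.06 against that replicate alone (1.42e-04), both past the threshold in opposite directions. With library weights it passed at -0.74 (limma adjusted p = 0.00381). The calls of Cdc20 and Ube2c were lost without wild-type replicate 2 (0.0613 and 0.155) and without replicate 3 (0.0679 and 0.154), and that of Ube2c also without MSTN+/- replicate 3, 5 or 6 (0.0545 to 0.060).

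**Figure D2:**
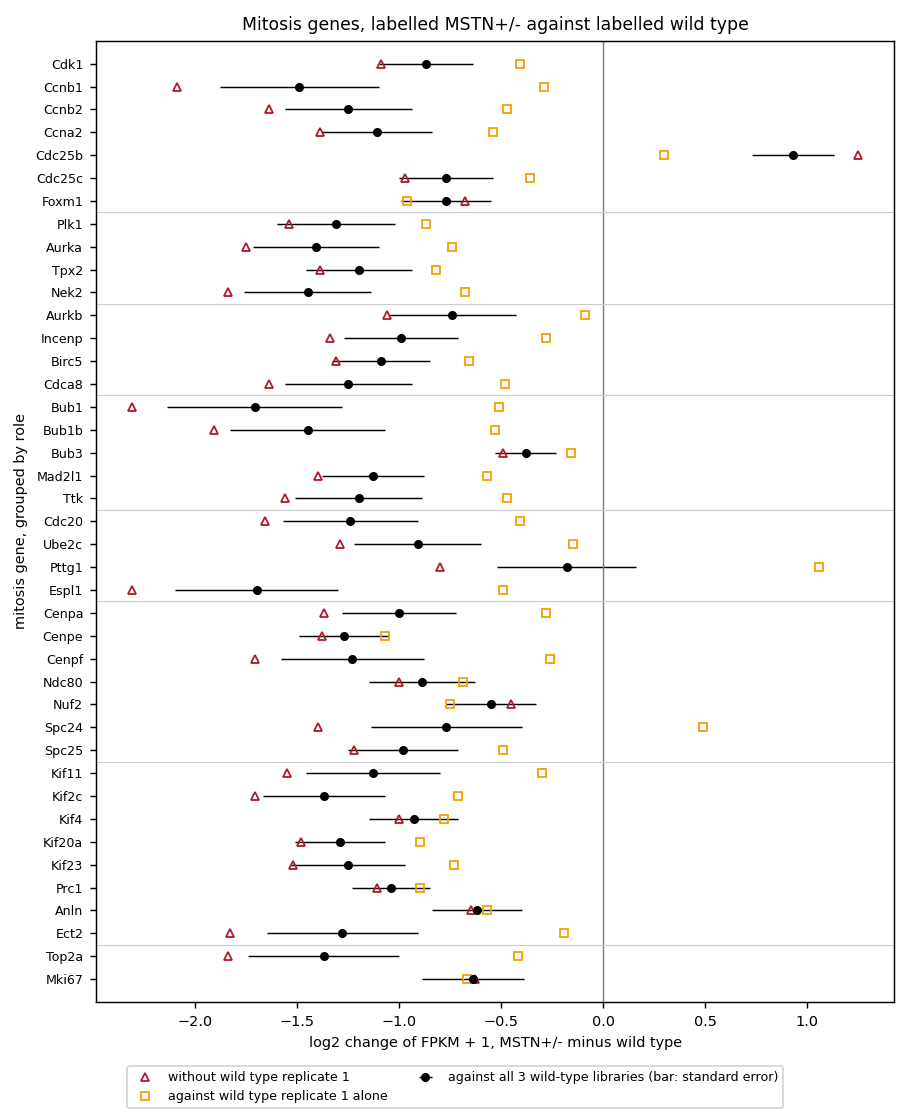
Log2 change of FPKM + 1 (MSTN+/- minus wild type) of the 41 mitosis genes against all 3 wild-type libraries (points with standard errors), without wild-type replicate 1 (triangles) and against that replicate alone (squares). Of all 41, Cdc25b is the one gene right of 0 in all 3 fits, and Pttg1 and Spc24 lie on opposite sides of 0 in the last 2.

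At the kinetochore, which links chromosomes to microtubules, 5 of 7 genes were lower. Cenpa encodes the histone variant that marks the centromere, Cenpe a motor and Cenpf a large protein of the outer kinetochore, and Ndc80, Nuf2, Spc24 and Spc25 the 4 subunits of the complex that holds the microtubule. Cenpe was at 3.29, 7.18 and 8.69 FPKM at the lowest, median and highest of the MSTN+/- group, against 14.5, 18.4 and 17.9 FPKM for wild type (log2 change -1.27, standard error 0.22, limma adjusted p = 0.00140). It passed in every alternative fit with more than 1 wild-type library, and its log2 change against wild-type replicate 1 alone was -1.07. Cenpa and Cenpf overlapped between groups through wild-type replicate 1 and had log2 changes of -1.0 and -1.23 (limma adjusted p = 0.0148 and 0.0169). Their calls were lost without wild-type replicate 2 or 3 (0.0643 and 0.0827 for Cenpa, 0.0822 and 0.0922 for Cenpf).

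The 4 subunits of the Ndc80 complex did not follow one pattern across the wild-type libraries. Ndc80 was at 2.58, 6.31 and 8.08 FPKM at the lowest, median and highest of the MSTN+/- group, against 10.04, 12.8 and 12.5 FPKM for wild type. Spc25 was at 6.63, 13.1 and 16.8 FPKM for MSTN+/-, against 17.3, 29.7 and 29.0 FPKM for wild type. Both were lower without overlap (log2 changes -0.89 and -0.98, limma adjusted p = 0.0176 and 0.0147), and both calls were lost without wild-type replicate 2 (0.0690 and 0.0707) or replicate 3 (0.0648 and 0.0674), and that of Ndc80 also with library weights (0.0765). Nuf2 was at 5.36, 11.5 and 12.5 FPKM at the lowest, median and highest of the MSTN+/- group, against 18.0, 13.5 and 15.6 FPKM for wild type, highest in replicate 1 (log2 change -0.55, limma adjusted p = 0.0655). Spc24 was at 13.8, 20.4 and 24.8 FPKM for MSTN+/-, against 13.8, 55.6 and 51.6 FPKM for wild type, so that wild-type replicate 1 was nearly level with the lowest MSTN+/- library (log2 change -0.77, limma adjusted p = 0.109). Without wild-type replicate 1, Spc24 passed at -1.40 (3.48e-05) and Nuf2 did not pass at -0.45 (0.119). Nuf2 passed with median-of-ratios scaling (0.0207), with quantile normalization (0.0259) and when MSTN+/- replicate 7 was left out (0.0178), and Spc24 with median-of-ratios scaling (0.0362) and library weights (0.00121).

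All 8 genes of spindle motors and cytokinesis were lower. Kif11 pushes spindle poles apart, Kif2c shortens microtubules at the centromere, and Kif4, Kif20a, Kif23 and Prc1 act on the microtubule bundles of the spindle midzone, while Ect2 and Anln organise the contractile ring. Kif20a had the smallest adjusted p of the 41 genes in the fit with all libraries. It was at 15.5, 27.6 and 32.5 FPKM at the lowest, median and highest of the MSTN+/- group, against 51.1, 74.3 and 79.5 FPKM for wild type (log2 change -1.29, standard error 0.22, limma adjusted p = 0.00128). Prc1 was at 14.2, 24.4 and 29.3 FPKM for MSTN+/-, against 44.4, 48.7 and 54.3 FPKM for wild type (log2 change -1.04, limma adjusted p = 0.00174). Both passed in every alternative fit with more than 1 wild-type library. Set against wild-type replicate 1 alone, each had a log2 change of -0.90. In that fit the changes of Cenpe and Foxm1 were -1.07 and -0.96, and the median over the 41 mitosis genes was -0.49.

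Kif23, Kif2c and Kif4 did not overlap between groups and had log2 changes of -1.25, -1.37 and -0.93 (limma adjusted p = 0.00560, 0.00491 and 0.00769). Kif11 and Ect2 overlapped through wild-type replicate 1 (log2 changes -1.13 and -1.28, limma adjusted p = 0.0193 and 0.0176). Their calls were lost without wild-type replicate 2 or 3 (0.0939 and 0.0966 for Kif11, 0.0870 and 0.0966 for Ect2). Anln was at 15.5, 30.5 and 33.4 FPKM at the lowest, median and highest of the MSTN+/- group, against 41.9, 52.2 and 37.4 FPKM for wild type. It was the weakest call (log2 change -0.62, limma adjusted p = 0.0424) and was lost in several alternatives, the highest adjusted p being 0.324 with library weights. Apart from the library weights it was lost with no low-value filter (0.0554), against wild-type replicate 1 alone (0.192) and when MSTN+/- replicate 1, 3, 5 or 6 was left out (0.0541 to 0.0676), or wild-type replicate 2 or 3 (0.173 and 0.0610).

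Of 2 common markers of dividing cells, Top2a was lower and Mki67 did not pass. Top2a, the topoisomerase that untangles chromosomes, was at 22.7, 47.2 and 68.2 FPKM at the lowest, median and highest of the MSTN+/- group, against 60.9, 162 and 169 FPKM for wild type (log2 change -1.37, limma adjusted p = 0.0129). Mki67, which encodes the Ki-67 protein that coats mitotic chromosomes, was at 13.7, 32.2 and 33.8 FPKM for MSTN+/-, against 44.7, 39.0 and 48.1 FPKM for wild type. Its groups did not overlap, but it did not pass (log2 change -0.64, limma adjusted p = 0.0580). It passed in 3 alternatives, namely without MSTN+/- replicate 7 (0.00877), with median-of-ratios scaling (0.0186) and rescaled to TPM (0.0472). The call of Top2a was lost without wild-type replicate 2 or 3 (0.0677 and 0.0695).

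The 3 wild-type libraries were not alike in these genes. Relative to the median of the MSTN+/- libraries, the median ratio of the 41 genes was 1.37 in wild-type replicate 1, 2.48 in replicate 2 and 2.55 in replicate 3, and the same ratios over all genes tested were 0.80, 0.89 and 0.87. In replicate 1, 26 of the 41 genes lay above all MSTN+/- libraries, 3 below them and 12 within their range. In replicates 2 and 3, 40 lay above and 1, Cdc25b, below. Of all genes tested, 19.8%, 35.6% and 35.8% lay above all MSTN+/- libraries in wild-type replicates 1, 2 and 3, and 50.0%, 45.4% and 46.3% lay below. The genes below in replicate 1 were Cdc25b, Pttg1 and Spc24. Wild-type replicate 2 was at 0.46 times replicate 1 for Cdc25b at the lowest and at 4.04 times for Spc24 at the highest, and replicate 3 at 0.51 times for Cdc25b and at 4.37 times for Bub1.

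At least 1.5 times the level of wild-type replicate 1 was reached by 28 of the 41 genes in replicate 2 and by 30 in replicate 3, beside 40.3% of all genes tested in each. Under 1.5 times in both were 11 genes, among them Mki67, Foxm1, Nuf2, Bub3, Anln and Prc1. With 1 library against 2 no test was made of these differences. Wild-type replicate 1 was also the library with the lowest summed pluripotent cell markers and the highest summed fibroblast markers, as given above, and the part of those cell types in the result was not tested.

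Relative levels within pairs of mitosis genes also differed between wild-type libraries. These pairs were chosen after the values were seen, and FPKM allows the comparison since it is per length of transcript. The ratio of Ccnb1 to Cdk1 was 1.5 to 1.96 in MSTN+/- libraries and 1.54, 3.23 and 3.44 in wild-type replicates 1, 2 and 3. The ratio of Bub1 to Bub3 was 0.13 to 0.31 for MSTN+/-, against 0.24, 0.63 and 0.81 for wild type, and that of Mki67 to Top2a 0.47 to 0.73 for MSTN+/-, against 0.73, 0.24 and 0.28 for wild type. In these 3 pairs wild-type replicate 1 lay within or at the edge of the MSTN+/- range and replicates 2 and 3 outside it. The ratio of Spc24 to Spc25 ran the other way, at 1.38 to 2.19 for MSTN+/-, against 0.79, 1.87 and 1.78 for wild type, so that there replicate 1 alone lay outside the range. The ratio of Cdc25b to Cdc25c was 2.49 to 4.98 in MSTN+/- libraries and 1.91, 0.51 and 0.63 in the wild-type libraries. The ratio of Pttg1 to Espl1 was 4.03 to 10.4 in MSTN+/- libraries and 1.93, 2.02 and 1.80 in the wild-type libraries, so that here all 3 wild-type libraries were close to each other.

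**Figure D3:**
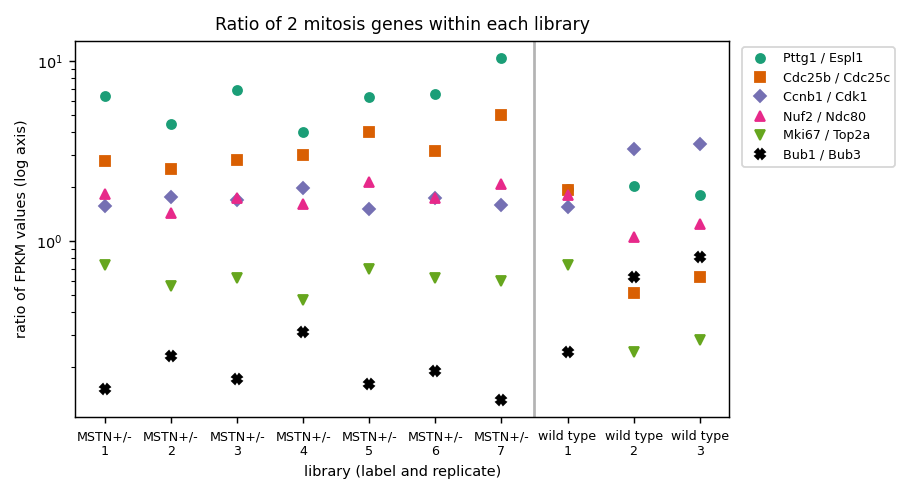
Ratio of the FPKM values of 6 pairs of mitosis genes (log axis) in each library. The ratio of Pttg1 to Espl1 lies below 2.1 in all 3 wild-type libraries and above 4 in all 7 MSTN+/- libraries, while those of Ccnb1 to Cdk1 and Mki67 to Top2a set wild-type replicates 2 and 3 apart from the other libraries.

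Within the MSTN+/- group a single library stood apart. MSTN+/- replicate 7 was the lowest of the 7 libraries for 41 of 41 mitosis genes, as it was for 28.8% of all genes tested. The median ratio of replicate 7 to the mean of the other 6 was 0.47 over the mitosis genes and 0.96 over all genes tested. For 39 of the 41, replicate 7 was lower by 1.5 times or more, beside 9.70% of all genes tested, and for 21 the gap to the next library was large enough for Dixon's outlier test, beside 3.49%. The lowest ratio was that of Bub1b, at 0.36, where replicate 7 had 7.48 FPKM and the other 6 had 17.7 to 25.3 FPKM. The genes that fell short of 1.5 times were Cdc25b, at a ratio of 0.80, and Pttg1, at 0.87. The relative depth of replicate 7 was 1.11, the same as in 4 other MSTN+/- libraries.

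The same library had the highest summed fibroblast markers of the group, 8967 FPKM beside 4967 to 8012 FPKM in the other MSTN+/- libraries, and the second highest summed pluripotent cell markers, 1944 FPKM. That sum was mostly Pou5f1, Klf4 and Sox2, at 848, 616 and 357 FPKM, each the highest of the 7 MSTN+/- libraries. The median member of the list was at 12.7 FPKM there, below that of 4 of the other 6, and the median ratio of the list's members in replicate 7 to the mean of the other 6 was 0.61. The part of these cell types in the result was not tested. Without MSTN+/- replicate 7 the comparison of the labelled groups gave 37 genes lower and 1 higher, beside 10.1% and 29.3% of all genes, with a median log2 change of -0.97.

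**Figure D4:**
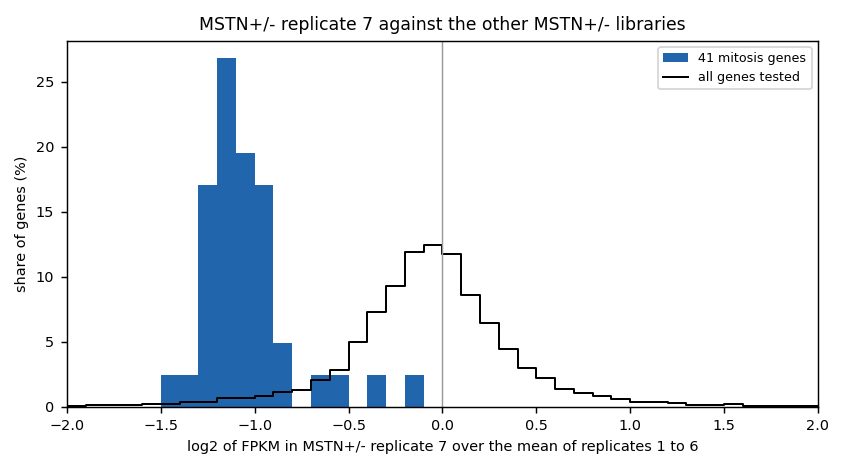
Share of genes by log2 ratio of FPKM in MSTN+/- replicate 7 to the mean of MSTN+/- replicates 1 to 6, for the 41 mitosis genes (bars) and all genes tested (line), shown for ratios within 2 log2 units of 0. The mitosis genes have a median ratio of 0.47 and all genes tested one of 0.96.

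The other 6 MSTN+/- libraries were close to each other but not identical. The coefficient of variation over these 6 was 10.7% at the median of the mitosis genes and 11.4% at the median of all genes tested. It was lowest for Bub3, at 3.79%, and highest for Bub1, at 27.4%. Replicate 4 was the highest of all 7 MSTN+/- libraries for 28 of the 41 genes, beside 28.0% of all genes tested. Bub1, for example, was at 13.9 FPKM in replicate 4, at 11.3 FPKM in replicate 2 and at 7.43 to 8.75 FPKM in replicates 1, 3, 5 and 6. Replicate 4 also had the highest summed pluripotent cell markers of the 7 MSTN+/- libraries, 2165 FPKM, and the lowest summed fibroblast markers, 4967 FPKM. The part of those cell types in the result was not tested.

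The mitosis genes covaried within the MSTN+/- group. Over 820 pairs of mitosis genes, Pearson's r of log2(FPKM + 1) across the 7 libraries had a median of 0.945 and ran from 0.42 to 0.999, and 92.6% of pairs were above 0.8. Over all pairs of genes tested the median was 0.026 and 3.81% were above 0.8. These values describe libraries that may share processing or animals. Without replicate 7, the lowest library for every one of these genes, the median over the mitosis pairs was 0.70, the range -0.62 to 0.995, and 33.9% of pairs were above 0.8, beside a median of 0.026 and 5.29% for all pairs of genes tested. Leaving out any other MSTN+/- library gave medians of 0.946 to 0.962.

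Over the 6 remaining libraries, the genes ranged widely in how closely they followed the others, with the widest steps between the lowest genes. The median r with the other 40 genes was above 0.8 for 17 genes, led by Espl1 at 0.87, Bub1b at 0.87 and Prc1 at 0.86. It lay between 0.5 and 0.8 for most of the others, such as Cenpa at 0.73 and Ccnb2 at 0.65, and below 0.5 for 5 genes. These were Birc5 at 0.47, Kif4 at 0.31, Foxm1 at 0.18, Bub3 at 0.07 and Pttg1 at -0.07. Over all 7 libraries the same 5 genes had median r of 0.94, 0.92, 0.90, 0.92 and 0.65. Pttg1 was the only gene below 0.8 in that comparison.

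**Figure D5:**
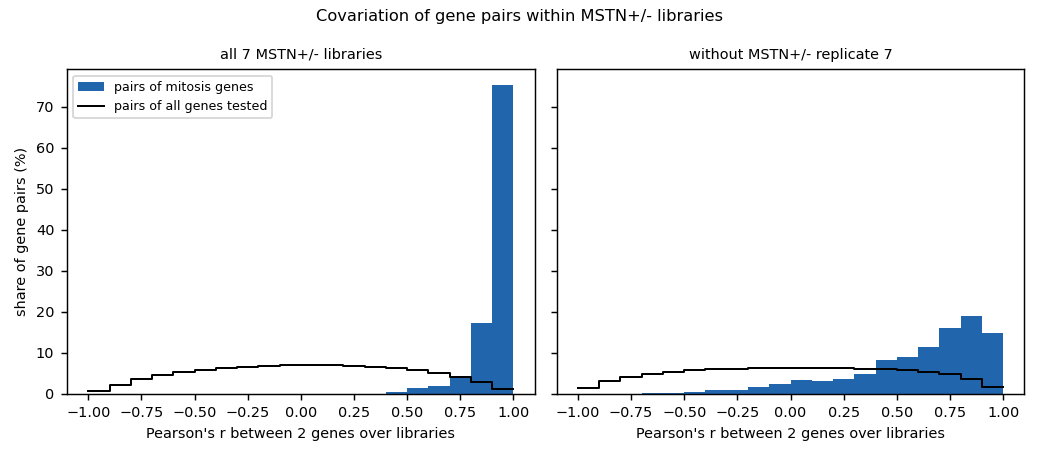
Share of gene pairs by Pearson's r of log2(FPKM + 1), for pairs of mitosis genes (bars) and of all genes tested (line), over all 7 MSTN+/- libraries (left) and without MSTN+/- replicate 7 (right). The median of the mitosis pairs is 0.945 on the left and 0.70 on the right.

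Pairs of genes with linked roles in mitosis, called partner pairs here, were tested one by one, in 17 pairs. Over 7 libraries, 13 passed for Pearson's r and 5 for Spearman's rho (exact two-sided permutation test over all pairings, Benjamini-Hochberg adjusted over the 17). Over all 820 pairs of mitosis genes the median r was 0.945 and 92.6% were above 0.8. A high r was therefore not particular to the 17 pairs, and the other pairs were not put to the permutation test. Tpx2 and its partner kinase gene Aurka had a Pearson's r of 0.990 (exact permutation p = 1.98e-04, the smallest that 7 libraries allow, adjusted 0.00337) and a Spearman's rho of 1 (exact permutation p = 3.97e-04, adjusted 0.00675). Without the 2 libraries farthest from the median of Tpx2, replicates 4 and 7, their r was 0.906. Aurkb and its scaffold gene Incenp had a Pearson's r of 0.987 (exact permutation p = 0.00139, adjusted 0.00899) and a rho of 0.964 (exact permutation p = 0.00278, adjusted 0.0236), with r of 0.779 without replicates 4 and 7. Without replicate 7 alone, the pair of Tpx2 and Aurka was the 1 pair that passed (r = 0.935, adjusted exact permutation p = 0.0236), and Aurkb with Incenp did not pass (r = 0.892, adjusted exact permutation p = 0.0826).

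Other pairs depended on which libraries were included. Cdk1 and Ccnb1 had an r of 0.953 over 7 libraries (exact permutation p = 0.0123, adjusted 0.0232) and a rho of 0.714 (exact permutation p = 0.0881, adjusted 0.150), and r was 0.482 without replicates 6 and 7. Foxm1 and Plk1, a target of that transcription factor, had an r of 0.939 (exact permutation p = 0.0494, adjusted 0.0560) and a rho of 0.321 (exact permutation p = 0.498, adjusted 0.529), and r was -0.874 without replicates 3 and 7. Pttg1 and Espl1, securin and separase, had an r of 0.536 (exact permutation p = 0.1998, adjusted 0.1998) and a rho of 0.464 (exact permutation p = 0.302, adjusted 0.367), and r was -0.057 without replicates 1 and 7. Mki67 and Top2a had an r of 0.906 (exact permutation p = 0.0252, adjusted 0.0357) and a rho of 0.679 (exact permutation p = 0.1095, adjusted 0.169), and r was 0.131 without replicates 3 and 7. For these 4 pairs r thus fell below 0.5 or changed sign once replicate 7 and 1 other library were left out. Without replicates 4 and 7, r also fell below 0.5 for Ccnb1 with Ccnb2 (0.431), Spc24 with Spc25 (0.143) and Bub1 with Bub3 (0.255). The same held for Mad2l1 with Cdc20 (0.453) and Prc1 with Kif4 (0.262). In the rest of the 17 pairs r was 0.518 to 0.906. Leaving out the libraries farthest from the median narrows the range of values, which by itself can lower r.

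The rest of the mitotic machinery was read from 8 further lists with 137 measured genes, all of which were tested. Of these, 82 were lower and 10 higher in MSTN+/- libraries, beside the 12.8% and 31.8% of all genes tested against which the list counts below are also to be read. When wild-type replicate 2 was left out 37 were lower, and without replicate 3, 36, beside 5.71% and 5.70% of all genes. Of 23 other spindle motors and microtubule genes, 17 were lower and 0 higher (median log2 change -0.96), with Kif2a at 16.2 ± 1.48 FPKM (SD, n = 7) for MSTN+/- against 25.8 ± 1.1 FPKM (SD, n = 3) for wild type and Tacc3 at 18.1 ± 4.06 FPKM for MSTN+/- against 39.3 ± 6.89 FPKM for wild type. Of 33 other kinetochore and centromere genes, 23 were lower and 1 higher (median -0.77), with Spdl1 at 4.71 ± 1.05 FPKM for MSTN+/- against 12.1 ± 2.65 FPKM for wild type and Trip13, which resets the checkpoint protein Mad2, at 8.96 ± 1.98 FPKM for MSTN+/- against 25.0 ± 9.58 FPKM for wild type. Of 8 condensin subunits, 5 were lower and 0 higher (median -0.79), with Smc2 at 13.2 ± 2.73 FPKM for MSTN+/- against 30.4 ± 6.28 FPKM for wild type and Smc4 at 24.9 ± 4.99 FPKM for MSTN+/- against 44.4 ± 5.89 FPKM for wild type.

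Of 17 regulators of mitotic entry and exit, 11 were lower and 2 higher (median -0.89), with the Cdk-binding subunit gene Cks1b at 51.7 ± 7.10 FPKM (SD, n = 7) for MSTN+/- against 105 ± 8.56 FPKM (SD, n = 3) for wild type and the centriole kinase gene Plk4 at 6.96 ± 1.02 FPKM for MSTN+/- against 14.2 ± 1.77 FPKM for wild type. Of 13 cohesin and shugoshin genes, 7 were lower and 1 higher (median -0.77). Pds5a was at 22.8 ± 3.73 FPKM for MSTN+/- against 45.6 ± 15.1 FPKM for wild type. The shugoshin gene Sgol1 was at 5.02 ± 1.60 FPKM for MSTN+/- against 13.8 ± 5.48 FPKM for wild type. In wild-type replicate 1 Pds5a and Sgol1 were at 28.8 and 7.46 FPKM, near the highest MSTN+/- values of 26.5 and 7.19 FPKM. Of 10 other cytokinesis genes, 5 were lower and 2 higher (median -0.46), with Shcbp1 at 7.58 ± 1.79 FPKM for MSTN+/- against 16.4 ± 4.04 FPKM for wild type and Racgap1, the partner of Kif23, at 27.1 ± 5.58 FPKM for MSTN+/- against 48.8 ± 6.80 FPKM for wild type.

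The anaphase-promoting complex was mixed: of 15 subunits and activators, 5 were lower and 2 higher (median -0.14). Anapc15 was at 12.2 ± 3.20 FPKM for MSTN+/- against 31.6 ± 14.3 FPKM for wild type. Anapc16 was higher, at 29.1 ± 1.90 FPKM for MSTN+/- against 17.9 ± 5.57 FPKM for wild type. Wild-type replicate 1 lay within the MSTN+/- range for Anapc15, at 15.7 FPKM against 8.47 to 18.9 FPKM. For Anapc16 it lay just under that range, at 24.3 FPKM against 25.4 to 31.7 FPKM. Of 18 genes of G2 and mitosis transcription control, 9 were lower and 2 higher (median -0.53). The repressor gene E2f7 was at 3.14 ± 0.84 FPKM (SD, n = 7) for MSTN+/- against 8.82 ± 1.37 FPKM (SD, n = 3) for wild type. Rbl2, a pocket protein that represses these genes in resting cells, was higher, at 10.1 ± 0.638 FPKM for MSTN+/- against 4.02 ± 2.15 FPKM for wild type (log2 change 1.22, limma adjusted p = 9.08e-04). MSTN+/- replicate 7 was the lowest MSTN+/- library for 111 of the 137 genes, beside 28.8% of all genes tested. The median ratio of replicate 7 to the mean of the other MSTN+/- libraries differed between lists. It ran from 0.48 for the other spindle motors and microtubule genes to 0.94 for the anaphase-promoting complex. Against wild-type replicate 1 alone, 12 of the 137 were lower and 13 higher, beside 10.8% and 33.7% of all genes, so that the lower count was no larger than the share of all genes. Without that replicate 106 were lower and 12 higher, beside 31.9% and 42.2%.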

How the data were processed

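Per the file headers, the authors deposited 1 FPKM value for each gene in each library, given to 2 decimals. The sources used here do not name the aligner, the counting tool or the genome build. Columns were tied to libraries by the title in the column name, and 0 columns were left unused. Groups follow the genotype label, and replicate numbers, given in record order, pair nothing.

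Since FPKM are not counts, log2(FPKM + 1) was modelled with limma 3.58.1 under R 4.3.3, with the prior variance following mean level, no covariate and 8 residual degrees of freedom. The 14047 genes that reached 1 FPKM in 3 or more libraries were tested. This scale understates the change of low genes. Adjusted p-values are Benjamini-Hochberg values over all genes tested, called below 0.05. The limma procedure was tested on simulated data with independent noise of equal spread in both groups. Those data lacked the split among wild-type libraries and the covariation of genes seen here, so that test cannot speak to either. Total depth is unknown, and relative depth is the modal ratio over 2059 low genes. Correlations used scipy 1.17.1 and figures matplotlib 3.10.9.

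The text names all 41 mitosis genes and the 2 genes of smallest p in each further list. These genes and lists were chosen with earlier results of these data known. Correlating partner pairs without MSTN+/- replicate 7 was added after seeing the data. The other alternatives were rescaling (TPM, median of ratios, quantiles), a pseudocount of 0.1, other low-value filters (none, or a mean of 5 FPKM), a robust prior, library weights, each library left out, and wild-type replicate 1 alone.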

Additional observations from a re-analysis of the deposited data

Results flagged for a closer look

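Within the 7 libraries labelled MSTN+/-, 21 of the 41 mitosis genes had in replicate 7 a value so far below the other libraries that the gap to the next one passed Dixon's critical value for 7 samples, as a share of the group's whole range, and no gene had such a gap at the high end. Chance alone gives such a gap, in any library and at either end, in about 1 of 20 groups. That is not the rate for the low end of 1 chosen library. Replicate 7 was lowest with such a gap for 3.49% of all genes tested. The 21 genes are not independent, since they covary, and all concern the same library.

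In the Cdk1 switch these were Cdk1 at 12.1 FPKM, Ccnb1 at 19.1 FPKM, Ccnb2 at 12.8 FPKM and Ccna2 at 19.8 FPKM in replicate 7. Among the mitotic kinases and their activator they were Plk1 at 15.7 FPKM, Aurka at 11.3 FPKM and Tpx2 at 11.6 FPKM. In the chromosomal passenger complex they were Aurkb at 9.62 FPKM, Incenp at 13.7 FPKM and Birc5 at 19.7 FPKM. In the checkpoint and at the anaphase switch they were Bub1b at 7.48 FPKM, Bub3 at 31.2 FPKM and Cdc20 at 26.1 FPKM. At the kinetochore it was Nuf2 at 5.36 FPKM. Among motors and cytokinesis genes they were Kif11 at 7.67 FPKM, Kif2c at 5.91 FPKM, Kif4 at 3.19 FPKM, Kif20a at 15.5 FPKM, Prc1 at 14.2 FPKM and Anln at 15.5 FPKM. The last was Mki67 at 13.7 FPKM. The cause was not tested.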

How the results depend on the processing

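The count of mitosis genes lower in MSTN+/- libraries was 34. It ran from 33 to 39 with the other scalings, pseudocount, filters, robust prior and library weights, and from 17 to 38 when 1 library was left out, the lowest counts being those without wild-type replicate 2 (18) or 3 (17). Against wild-type replicate 1 alone it was 4. The count of higher genes was 1 in every alternative run, but the gene was Pttg1 in place of Cdc25b against wild-type replicate 1 alone. Pttg1, at -0.80 without wild-type replicate 1, changed direction without wild-type replicate 2 (0.12), without replicate 3 (0.14) and against replicate 1 alone (1.06), and Spc24 did in the last (0.49). In the further lists the count of lower genes was 82. It ran from 36 without wild-type replicate 3 to 106 without replicate 1, beside the same shares of all genes. The count of higher genes was 10, beside 31.8% of all genes tested. It was 3 with median-of-ratios scaling (23.2% of all genes) and 6 with quantile normalization (22.0%). Over the left-out libraries it ran from 6 without wild-type replicate 2 (25.2%) to 12 without replicate 1 (42.2%). The median correlation of 0.945 was 0.941 to 0.947 under the other scalings and pseudocount and ran from 0.70 to 0.962 over the left-out libraries. The count of correlated partner pairs was 13, was 12 to 15 under the other scalings and pseudocount, and was 1 without MSTN+/- replicate 7. That last count rests on 6 libraries, with which small permutation p-values are harder to reach, so it is not directly comparable with 13. The cause of these differences was not tested. Total depth is unknown, so no counting error can be given for low values. No paired analysis was possible because the labels give no replicate numbers.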
